A study of Mus musculus with 6 samples.

Results

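The miR-181 family was measured by 3 of the 334 mouse microRNA probes on the arrays, those for mmu-miR-181a, mmu-miR-181b and mmu-miR-181c (mmu for mouse), which were chosen by the microRNA name in the probe description. All 3 passed the filter on dim probes, as did 294 of the 334. The samples were mouse embryoid bodies of strain 129S7/SvEv Brd-Hprt b-m2, clumps of embryonic stem cells that differentiate in suspension, harvested after 7 days. The cells carried human BRCA1 with the missense change R1699Q (RQ), with M1652I (MI) or in its wild-type form (WT), with 2 biological replicates and so 2 arrays per group. Both changes lie in the C-terminal BRCT repeats of BRCA1, a DNA repair protein and tumour suppressor. Per the labels, the RNA of each group was in Cy3 and RNA of WT embryoid bodies was in Cy5 throughout, with no dye swap. The labels do not say whether replicates came from separate cultures or clones, so the p-values measure only the spread between these arrays, which may be technical. They do not state what each group's cells retain of mouse Brca1.

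MicroRNAs are short RNAs that pair with messenger RNAs mainly through their seed, bases 2 to 8 from the 5′ end, and lower the output of those messages. The miR-181 family is known in mouse for high levels in thymus, bone marrow and brain. In mouse blood progenitors miR-181a favours the B lymphocyte lineage, and in developing T cells it raises the sensitivity of the antigen receptor by lowering phosphatases. The family is also known to increase when mouse myoblasts differentiate.

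The mature sequences are shown because the 3 members and miR-181d share their seed, given in capitals, and differ only beyond it. They are those of RefSeq on GRCm38.p6.
miR-181a: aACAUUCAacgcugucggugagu
miR-181b: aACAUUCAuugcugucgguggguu
miR-181c: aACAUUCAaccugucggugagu
miR-181d: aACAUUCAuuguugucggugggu
Of 1679 mature mouse microRNA names in the RefSeq table, 4 have this seed, and 3 of them were matched by probes here. miR-181d was not analysed here. miR-181a and miR-181c are separated by a single edit (1 substituted, inserted or deleted base), miR-181a and miR-181b by 4, and miR-181b and miR-181c by 5.

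The probes are shown because they set what each signal can hold. Each is 60 bases long, with the complement of the microRNA in capitals at the 5′ end and the rest of the probe in lower case.
miR-181a probe: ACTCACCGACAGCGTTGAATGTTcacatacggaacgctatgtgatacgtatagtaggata
miR-181b probe: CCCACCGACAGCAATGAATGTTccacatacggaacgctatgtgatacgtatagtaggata
miR-181c probe: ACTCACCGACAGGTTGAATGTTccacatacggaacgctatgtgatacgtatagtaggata
The miR-181a probe covers all 23 bases of its target and the miR-181c probe all 22. The miR-181b probe covers 22 of 24 and leaves out the last 2. The sequence targeted by the miR-181a probe is 1 edit from mature miR-181c, and that of the miR-181c probe is 1 edit from miR-181a. The sequence targeted by the miR-181b probe is 1 edit from miR-181d. How much signal these close sequences share on each probe was not tested.

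The family is encoded at 3 loci, and the hairpins of miR-181a and miR-181b are shown because each mature sequence comes from 2 of them. The mature arm is in capitals.
Mir181a-1: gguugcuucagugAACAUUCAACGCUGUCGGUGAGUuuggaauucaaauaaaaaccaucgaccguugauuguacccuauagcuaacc
Mir181a-2: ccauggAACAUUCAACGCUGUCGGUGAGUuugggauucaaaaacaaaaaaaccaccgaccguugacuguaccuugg
Mir181b-1: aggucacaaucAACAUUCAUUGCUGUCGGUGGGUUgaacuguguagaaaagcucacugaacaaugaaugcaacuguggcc
Mir181b-2: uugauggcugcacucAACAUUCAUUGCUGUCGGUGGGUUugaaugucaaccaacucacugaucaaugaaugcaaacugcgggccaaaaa
On GRCm38.p6, Mir181a-1 lies at chr1:137966455-137966541 and Mir181b-1 at chr1:137966639-137966718, both on the plus strand with 97 bases between them. Mir181a-2 lies at chr2:38852735-38852810 and Mir181b-2 at chr2:38853830-38853918, both on the plus strand. The stretch from the first to the second overlaps Nr6a1, an orphan nuclear receptor gene, and the long noncoding gene Nr6a1os. The mature miR-181c lies at chr8:84178924-84178945 on the minus strand, and Mir181c and Mir181d are 85 bases apart. The exact matches of the miR-181a and miR-181b probes thus come from the chromosome 1 and chromosome 2 loci together. The exact match of the miR-181c probe comes from the chromosome 8 locus. Whether a probe also took signal from close sequences of another locus was not tested.

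Between 241 and 255 of the 334 probes exceeded background in Cy3 on each array, and between 262 and 271 in Cy5. Replicates correlated across microRNAs at r = 0.994 in RQ, 0.993 in MI and 0.987 in WT, where microRNAs are not independent of one another. The labels put WT embryoid body RNA in both dyes of the WT arrays, yet 55.1% of 294 tested microRNAs had a mean log2 ratio there beyond 1 in size, 82 of them below -1 and 80 above 1. Cy5 serves here as a common reference alone, and groups are compared only with each other. Negative control spots differed between groups in Cy3, with mean intensities above local background of 52.4 and 62.9 on the RQ arrays, 36.7 and 42.7 on the MI arrays, and 32.9 and 27.5 on the WT arrays. These means, and the multiples of them below, leave out scanner outlier spots. With all control spots kept the means were 93.05 and 102.8 on the RQ arrays, 43.79 and 59.37 on the MI arrays, and 59.44 and 43.84 on the WT arrays. MI and WT then overlapped.

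All 3 members were well above background in both channels on every spot of all 6 arrays, and none was saturated, but their Cy3 signals were low. Over the 3 members the mean Cy3 intensity of a probe's spots above local background ran from 133 to 161 on RQ arrays, from 128 to 181 on MI arrays, and from 61.3 to 100 on WT arrays. The member signals were thus 2.31 to 2.88 times the negative control signal on RQ arrays, 3.31 to 4.24 times on MI arrays and 2.22 to 3.19 times on WT arrays. Scanner outlier marks removed 1 of the 4 spots of miR-181a on MI replicate 2, and of miR-181c on WT replicate 1 and on both RQ arrays, where the average rests on 3 spots.

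miR-181a, the member with the best known role in lymphocytes, had Cy3 intensities above local background of 151 and 161 on the RQ arrays, 150 and 181 on the MI arrays, and 100 and 87.8 on the WT arrays. Both RQ and both MI arrays were above both WT arrays, and RQ and MI overlapped. Its Cy5 intensities were 1094 and 1112 on the RQ arrays, 1343 and 1282 on the MI arrays, and 1556 and 1487 on the WT arrays. The reference channel of this probe was thus dimmest on the RQ arrays and brightest on the WT arrays, with no overlap between groups. The Cy5 intensity of the median tested microRNA was also lower than in WT, at 0.834 times in RQ and 0.917 times in MI. How many of all tested microRNAs were separate in Cy5 was not counted.

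miR-181b, which shares both miR-181a loci, had Cy3 intensities of 145 and 146 on the RQ arrays, 128 and 142 on the MI arrays, and 87.6 and 66.3 on the WT arrays. Its Cy5 intensities were 521 and 539 on the RQ arrays, 591 and 607 on the MI arrays, and 718 and 692 on the WT arrays. In both channels the 3 groups were separate for this probe, with RQ highest in Cy3 and lowest in Cy5. The median tested microRNA was also brighter in RQ than in MI in Cy3 (1.32 times) and dimmer in Cy5 (0.9065 times). How many of all tested microRNAs were separate in this way was not counted.

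The probe for miR-181c, which is encoded at the chromosome 8 locus and is 1 edit from miR-181a, had Cy3 intensities of 133 and 153 on the RQ arrays. They were 140 and 155 on the MI arrays, and 95.3 and 61.3 on the WT arrays. The Cy5 intensities of this probe were 258 and 264 on the RQ arrays, 263 and 282 on the MI arrays, and 309 and 262 on the WT arrays. Here the mutants were separate from WT in Cy3, while all 3 groups overlapped in Cy5. In this raw Cy3 signal both RQ arrays were above both WT arrays for 3 of 3 members and for 63.3% of all tested microRNAs, and both MI arrays were above both WT arrays for 3 of 3 members and for 36.4%.

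**Figure D1:**
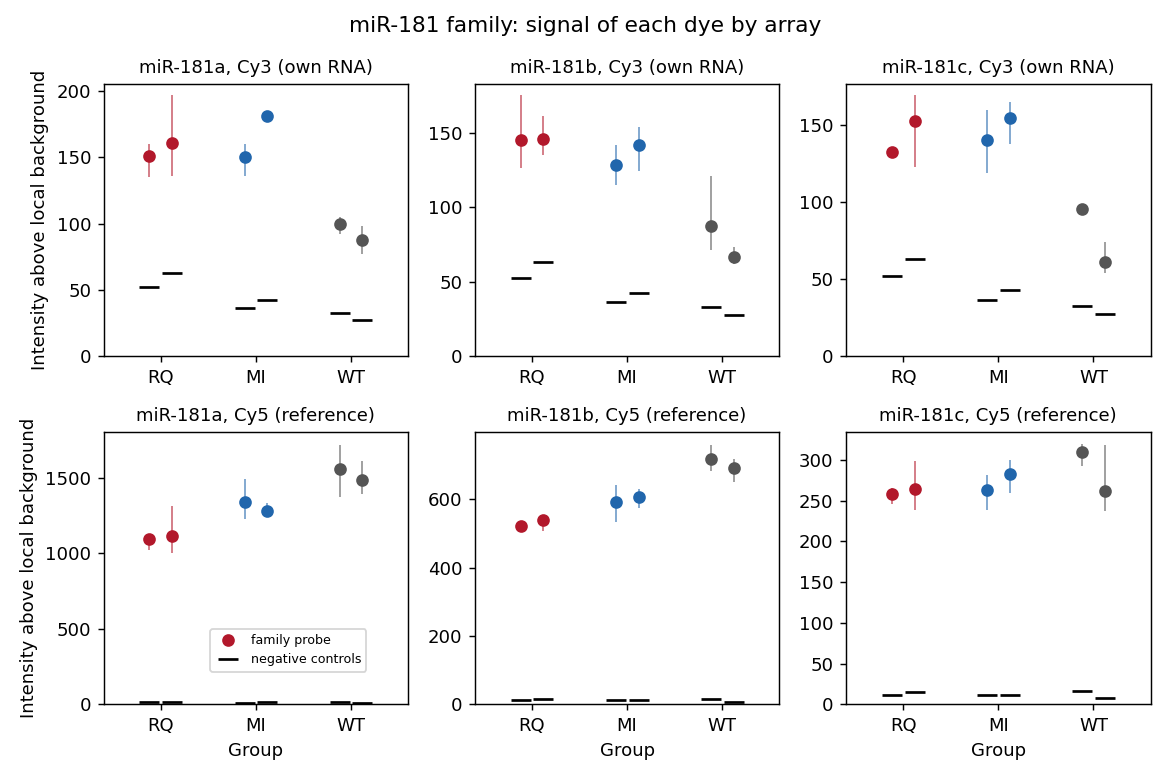
Intensity above local background (linear scale, arbitrary units) of each miR-181 probe by group, with Cy3 in the upper row and Cy5 in the lower. Points are arrays (mean of the 4 spots less outliers), and thin lines run from the lowest to the highest spot. Black bars are the mean of the negative control spots on the same array, less outliers. In Cy3 every RQ and MI array lay above every WT array for all 3 members, as RQ did for 63.3% and MI for 36.4% of all tested microRNAs, while negative controls were also highest on the RQ arrays (52.4 and 62.9).

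After normalisation the 3 members held the same order of groups, with MI highest, RQ between and WT lowest. The log2 ratio of Cy3 over Cy5 for miR-181a was -3.14 and -3.06 on the RQ arrays, -2.40 and -2.50 on the MI arrays, and -3.84 and -3.62 on the WT arrays. For miR-181b it was -2.52 and -2.63 on the RQ arrays, -1.98 and -2.24 on the MI arrays, and -3.19 and -3.16 on the WT arrays. For miR-181c it was -1.51 and -1.56 on the RQ arrays, -0.85 and -1.003 on the MI arrays, and -1.91 and -1.94 on the WT arrays. No 2 groups overlapped for any member. Of all tested microRNAs, 45.6% had both MI arrays above both WT arrays, and 33% had both RQ arrays above both WT arrays. Both RQ arrays were below both MI arrays for 44.9%. How many of all tested microRNAs had all 3 groups separate was not counted. Ratios are given by array for each probe alone, since levels of different probes are not comparable.

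**Figure D2:**
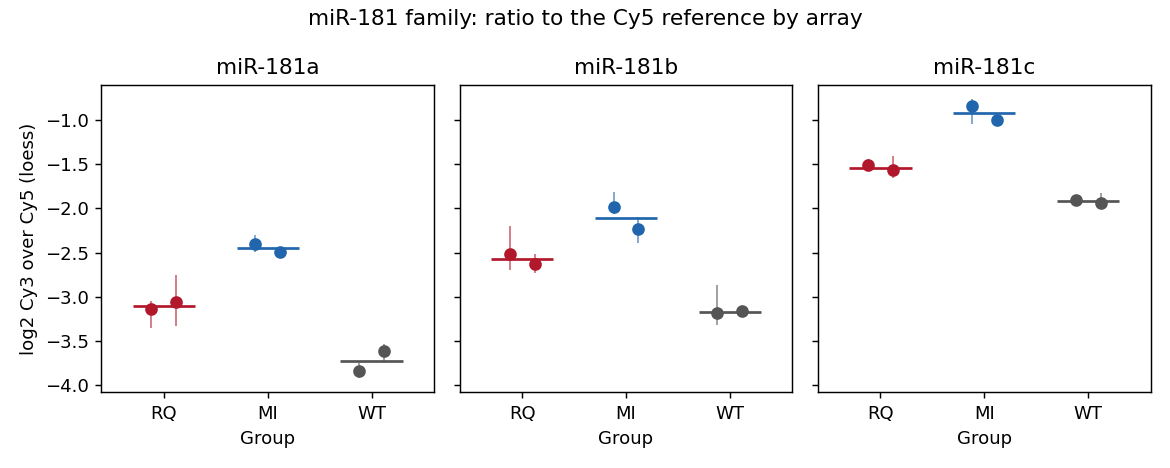
The log2 ratio of Cy3 over Cy5 after loess normalisation, by group, for each miR-181 member. Points are arrays, thin lines run from the lowest to the highest spot of the probe on that array, and horizontal bars are group means (n = 2 arrays). The miR-181a means were -3.10 in RQ, -2.45 in MI and -3.73 in WT, and the order was the same for miR-181b and miR-181c.

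In MI embryoid bodies all 3 members rose against WT, by 2.00-fold to 2.42-fold. Whether the members differed from one another was not tested. miR-181a averaged -2.45 ± 0.07 in MI and -3.73 ± 0.15 in WT (log2 ratio, SD, n = 2 arrays each), a change of 1.28 ± 0.12 (SE) or 2.42-fold with an adjusted p of 0.00375 in limma. miR-181b averaged -2.11 ± 0.18 in MI and -3.17 ± 0.02 in WT, a change of 1.06 ± 0.13 or 2.08-fold (limma adjusted p = 0.00599). miR-181c averaged -0.92 ± 0.11 in MI and -1.92 ± 0.02 in WT, a change of 1.00 ± 0.11 or 2.00-fold (limma adjusted p = 0.00464). They ranked 8, 11 and 13 from the highest change of 294 microRNAs. Against those 3 of 3 called higher, 9.18% of all tested microRNAs were called higher in MI, 6.46% lower and 15.6% in either direction, and the median change was 1.06 over the members and 0.11 over all tested microRNAs. Both MI arrays were above both WT arrays for 3 of 3 members and for 45.6% of all tested microRNAs. Without MI replicate 1 the changes of miR-181b and miR-181c were 0.93 and 0.92 and not called (adjusted p = 0.0532 each), and the calls over all microRNAs fell to 6, against 46 with it.

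The rise in MI was present in Cy3 with the reference channel left out. The mean Cy3 intensity in MI was 1.76 times that in WT for miR-181a, 1.75 times for miR-181b and 1.89 times for miR-181c, against 1.06 times for the median tested microRNA. The Cy5 intensity was 0.863, 0.850 and 0.954 times that on the WT arrays, against 0.917 for the median. With quantile-normalised Cy3 alone the changes were 0.66 ± 0.09, 0.56 ± 0.09 and 0.70 ± 0.12 (log2, SE), with limma adjusted p of 0.0172, 0.0209 and 0.0244. All 3 were below the loess values of 1.28, 1.06 and 1.00. With the negative control signal taken as background, chosen after seeing the data, the changes were 1.36, 1.16 and 1.1.

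In RQ embryoid bodies miR-181a and miR-181b rose against WT by 1.54-fold and 1.51-fold, and miR-181c did not pass the test. miR-181a averaged -3.10 ± 0.05 in RQ and -3.73 ± 0.15 in WT, a change of 0.62 ± 0.12 or 1.54-fold (limma adjusted p = 0.0184). miR-181b averaged -2.57 ± 0.08 in RQ and -3.17 ± 0.02 in WT, a change of 0.60 ± 0.13 or 1.51-fold (limma adjusted p = 0.0248). miR-181c averaged -1.54 ± 0.04 in RQ and -1.92 ± 0.02 in WT, a difference of 0.38 ± 0.11 (limma adjusted p = 0.0598). They ranked 23, 26 and 51 of 294. Against those 2 of 3 called higher, 7.48% of all tested microRNAs were called higher in RQ, 13.9% lower and 21.4% in either direction, and the median change was 0.60 over the members and 0.03 over all. Both RQ arrays were above both WT arrays for 3 of 3 members and for 33% of all tested microRNAs.

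The RQ rises of miR-181a and miR-181b were called under some scalings and not under others. With the negative control signal as background they were 0.56 and 0.57, both called (limma adjusted p = 0.0312 and 0.0353), with miR-181c at 0.39 (limma adjusted p = 0.0735). With median centring they were 0.58 and 0.64, both called (limma adjusted p = 0.00907 and 0.00378), with miR-181c at 0.33 (limma adjusted p = 0.057). With Cy3 alone, which leaves the reference channel out, the changes were 0.14 for miR-181a, 0.24 for miR-181b and 0.24 for miR-181c, and none was called (limma adjusted p = 0.291, 0.0978 and 0.218). With the loess curve drawn on bright probes they were 0.45, 0.35 and 0.33, also not called. The unscaled Cy3 intensity in RQ was 1.66, 1.89 and 1.83 times that in WT, but the median tested microRNA was at 1.35 times and negative controls were brighter as given above. The Cy5 intensity was 0.725, 0.752 and 0.913 times that on the WT arrays, against 0.834 for the median. Less the mean negative control, the Cy3 signal of the 3 members was 80.7 to 98.4 on the RQ arrays and 33.7 to 67.1 on the WT arrays. This difference is not scaled for the brighter Cy3 of RQ. As a multiple of the negative control, miR-181a was at 2.88 and 2.56 in RQ, below the 3.04 and 3.19 in WT. By that measure miR-181b and miR-181c overlapped between RQ and WT. Leaving out either RQ array ended both calls, with adjusted p of 0.0919 and 0.0881 for miR-181a and 0.158 and 0.0755 for miR-181b. Leaving out either WT array ended that of miR-181b alone (adjusted p = 0.0658 and 0.0527).

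RQ set against MI directly tests whether the mutants differed, and here miR-181a and miR-181c were lower in RQ. The change was -0.65 ± 0.12 for miR-181a (limma adjusted p = 0.0339) and -0.61 ± 0.11 for miR-181c (limma adjusted p = 0.0309). miR-181b had -0.46 ± 0.13 and did not pass (limma adjusted p = 0.0855). Against those 2 of 3 called lower, 7.82% of all tested microRNAs were called lower in RQ than in MI and 10.9% in either direction, and the median was -0.61 over the members and -0.10 over all. Both RQ arrays were below both MI arrays for 3 of 3 members and for 44.9% of all tested microRNAs. The Cy3 intensity in RQ was 0.941, 1.08 and 0.969 times that in MI for miR-181a, miR-181b and miR-181c, against 1.32 times for the median over all tested microRNAs. Median centring instead of loess gave differences of -0.22, -0.14 and -0.38, with none called (limma adjusted p = 0.244, 0.421 and 0.0575). Leaving out any 1 RQ or MI array ended both calls, at adjusted p of 0.118 to 0.176, and left 0 or 1 call over all microRNAs (limma, with 47 to 60 at an unadjusted p under 0.05) in place of 32.

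**Figure D3:**
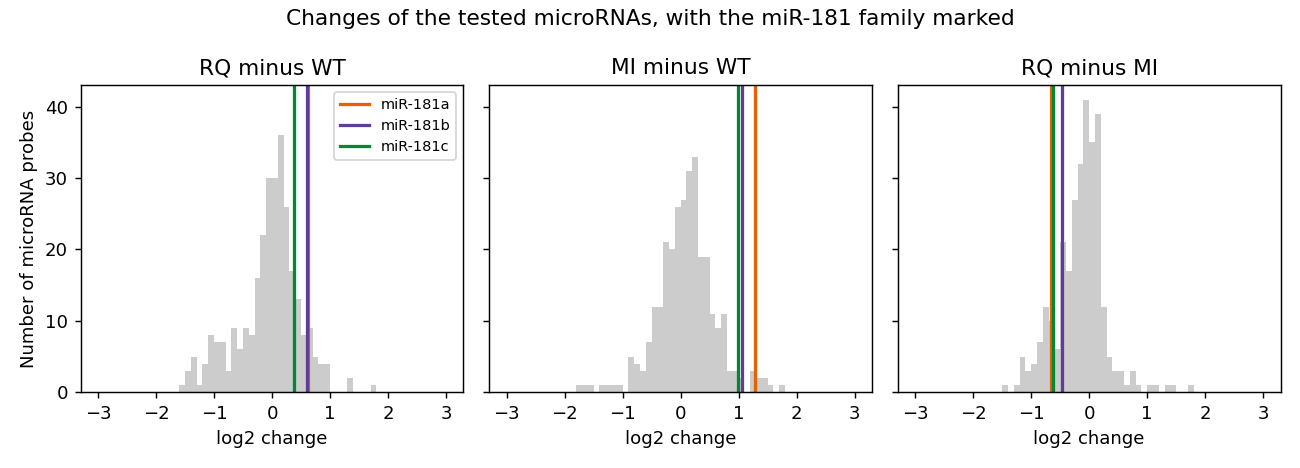
Histograms of the log2 change of all 294 tested microRNAs in each comparison , with coloured lines at miR-181a, miR-181b and miR-181c. The members lay at 1.00 to 1.28 in MI minus WT, at 0.38 to 0.62 in RQ minus WT and at -0.65 to -0.46 in RQ minus MI.

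**Figure D4:**
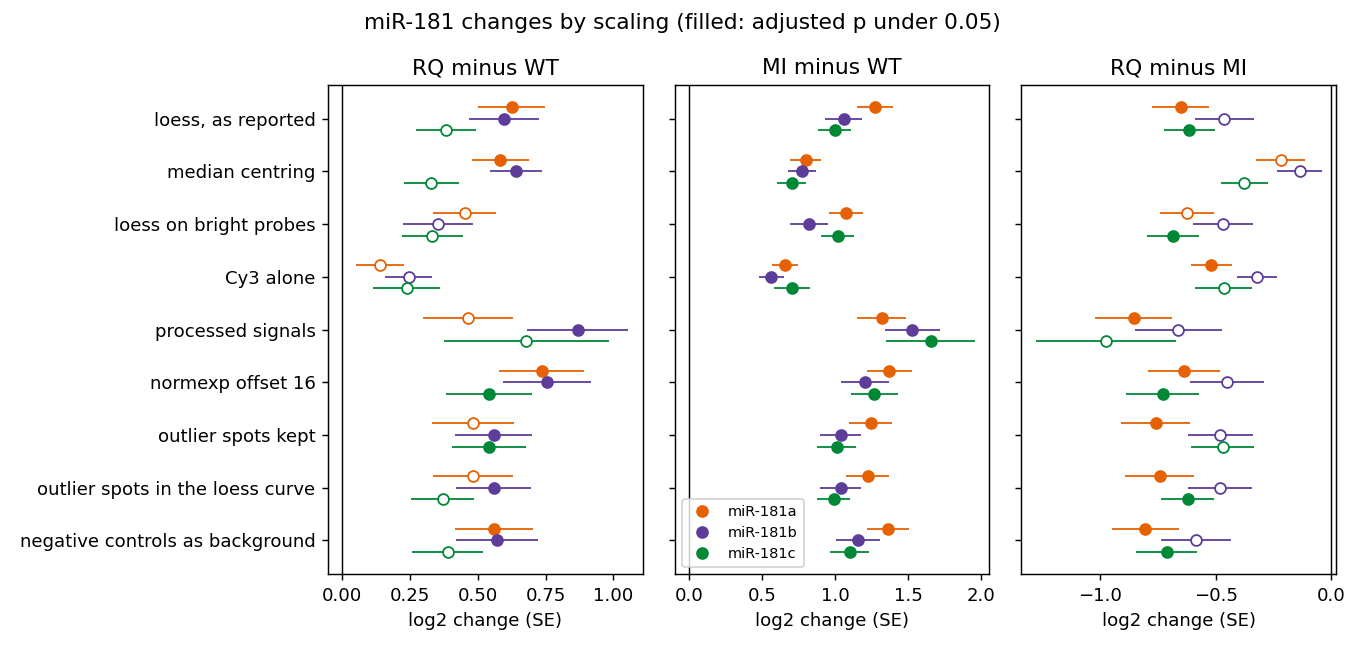
The log2 change (with SE) of each member under the normalisation as reported and 8 others, with filled points at an adjusted p under 0.05 and open points above. In MI minus WT every point is filled, from 0.56 to 1.66. In RQ minus WT the points lie between 0.14 and 0.87 and many are open.

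The members moved alike across the arrays, and 5 other microRNAs had ratios most like their mean. By Pearson correlation over the 6 arrays, these were miR-543 (r = 0.981), which lies in the imprinted Dlk1-Dio3 cluster, miR-491 (r = 0.980), miR-801 (r = 0.972), miR-7 (r = 0.970), known from brain and pancreatic islets, and miR-423 (r = 0.969). These points share 3 group means and a reference channel, and 27 of 291 other microRNAs had an r above 0.9, so the list is a description. miR-7 changed most of the 5, by 0.94 in RQ minus WT and by 1.56 in MI minus WT (limma adjusted p = 0.0084 and 0.00375). miR-543 changed by 0.58 in MI minus WT (limma adjusted p = 0.0275) and was at 0.25 in RQ minus WT (limma adjusted p = 0.176).

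Markers of blood, brain and muscle, where miR-181 is known to be present, and of other cell types were read beside the family. Over all tested microRNAs 9.18% were called higher and 6.46% lower in MI minus WT. In RQ minus WT these shares were 7.48% and 13.9%. With lists this short, a count of 1 call is no result about a cell type. Of 8 tested blood microRNAs, 0 were called in either direction in MI minus WT (limma, with 3 at an unadjusted p under 0.05), and their median was 0.25. miR-142-5p, found throughout blood cells, was at 0.44 (limma adjusted p = 0.174) and the myeloid miR-223, well above background in Cy3 on 0 RQ, 1 MI and 1 WT array, was not called. In RQ minus WT 2 of the 8 rose and 1 fell, the erythroid miR-451, whose Cy5 signal was saturated on all 6 arrays (limma adjusted p = 0.0084). Of 8 neural microRNAs 1 rose in MI, miR-218 at 0.45 (limma adjusted p = 0.0424), which was well above background in Cy3 on 0 RQ, 1 MI and 1 WT array. miR-128a was at 0.34 and not called, miR-9 was not well above background on either MI array and not called, and 1 of the 8 rose in RQ. Of 6 muscle and heart microRNAs, the skeletal muscle miR-206 rose in MI by 1.49 ± 0.33 (limma adjusted p = 0.034) and miR-499, encoded in a myosin gene, was called lower (limma adjusted p = 0.00599) but its Cy3 did not clear background on either MI array, so no size is given. In RQ 0 of the 6 rose and 2 fell.

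Of 11 mesenchymal microRNAs, which would include those of feeder fibroblasts, 1 rose in MI, miR-214 at 0.72 ± 0.12 (limma adjusted p = 0.0137), and in RQ 0 rose and 3 fell. The shares over all tested microRNAs were 9.18% higher and 6.46% lower in MI minus WT, and 7.48% higher and 13.9% lower in RQ minus WT. miR-29a was at -0.72 and miR-143 at 0.72 in MI minus WT, neither called. Of 11 stem cell microRNAs of the miR-290 and miR-302 clusters, 3 fell and 0 rose in MI, namely miR-302, miR-302d and miR-367. In RQ 3 fell and 0 rose, and only miR-302d was among those that fell in both mutants. miR-302 and miR-367 were not called in RQ minus WT (limma adjusted p = 0.313 and 0.546). miR-302d fell by 1.61 ± 0.12 in MI minus WT (limma adjusted p = 0.0028) and by 0.54 in RQ minus WT (limma adjusted p = 0.0256). The single endothelial microRNA, miR-126-5p, did not clear background in Cy3 on any of the 6 arrays and was not called in any comparison.

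Some cell type markers also differed between RQ and MI, where miR-181a and miR-181c were lower in RQ. Over all 294 tested microRNAs 9 were called higher in RQ minus MI, 7.82% were called lower and 10.9% were called in either direction. Of the 11 stem cell microRNAs 4 rose and 1 fell in RQ minus MI, with miR-302 at 1.33, miR-302d at 1.08 and miR-367 at 0.88 (limma adjusted p = 0.0394, 0.0146 and 0.0146). The Cy5 signal of these 3 was not well above background on any array. Of the 11 mesenchymal microRNAs 0 rose and 2 fell, among them miR-214 at -0.59 (limma adjusted p = 0.037). Of the 8 blood microRNAs 1 rose, and of the 8 neural and 6 muscle and heart microRNAs 0 were called (limma, with 1 and 2 at an unadjusted p under 0.05). The part of these markers in the family's RQ minus MI values was not tested.

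The summed Cy3 intensity of the 8 blood probes was 1668 to 1791 on the RQ arrays, 1141 to 1274 on the MI arrays and 1160 to 1183 on the WT arrays, with 4 of the 8 well above background on both arrays of each group. That of the 8 neural probes was 2297 to 2427 on the RQ arrays, 1512 to 1742 on the MI arrays and 1657 to 1665 on the WT arrays. The blood and neural sums thus overlapped between MI and WT, and were higher in RQ, where the median tested microRNA was also brighter. That of the 6 muscle and heart probes was 2600 to 3424 on the RQ arrays, 2042 to 2910 on the MI arrays and 1397 to 1443 on the WT arrays. This sum was higher in both mutants, but the 6 did not rise as a set. Only 3 of the 6 were well above background on both arrays in RQ and in MI, and 4 in WT. By ratio 1 was called higher and 1 lower in MI minus WT, and 0 higher and 2 lower in RQ minus WT. The median tested microRNA was at 1.35 times WT in Cy3 in RQ and 1.06 times in MI. The part of these probes in the family's change was not tested. The 11 mesenchymal probes summed to 6446 to 6809 on the RQ arrays, 4490 to 5476 on the MI arrays and 4633 to 5691 on the WT arrays. The 12 listed stem cell probes summed to 71552 to 74813 on the RQ arrays, 52722 to 66978 on the MI arrays and 52561 to 89135 on the WT arrays. In these whole embryoid bodies, more cells that carry miR-181 and more miR-181 per cell cannot be told apart.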

How the data were processed

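Mean and local background intensity per spot and dye, on a linear scale, were deposited as written by the scanner software (Agilent Feature Extraction, version 9.5.1.1 in the headers). The authors' processed intensity values and log10 ratios were corrected for background and dye by the scanner software, per the file headers. The deposited value table (log10) equalled minus the scanner log ratio in all 1932 listed features, with a largest difference of 0. Here limma 3.58.1 (R 4.3.3) was used for normexp background correction with an offset of 50 and for loess within each array. Control spots and scanner outliers had no weight in the curve, outliers were removed, and log2 Cy3 over Cy5 was averaged over each probe's 4 spots.

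Probes entered the test if 2 or more arrays had a share over 0.5 of the spots well above background, in Cy3 or in Cy5. Group means of the 6 arrays were compared with lmFit and eBayes, with Benjamini-Hochberg adjustment over 294 probes and calls at an adjusted p under 0.05. All 6 arrays lay on 1 slide. The WT arrays were in one row and the RQ and MI arrays in the other, per the array positions in the names of the deposited files, so row and group cannot be told apart against WT. The number of arrays limits the precision.

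The members and lists were chosen with earlier results of these data known. Named microRNAs were the members, the 5 most like them, and of each list up to 3 with the largest absolute change in MI minus WT; miR-451 is among these. A list of other mature products of the Mir181 loci (7 names) matched 0 listed probes and was not analysed here.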

Additional observations from a re-analysis of the deposited data

Results flagged for a closer look

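The changes of the mutants against the shared WT arrays differed by a test of the difference itself for miR-181a and miR-181c. RQ minus MI was -0.6517 for miR-181a (limma adjusted p = 0.0339) and -0.6145 for miR-181c (limma adjusted p = 0.0309), lower on both RQ arrays than on both MI arrays in each case. With median centring neither was called.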

How the results depend on the processing

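Changing the filter, pairing by replicate number or leaving out arrays outside a comparison cannot change its estimates, and the last all give the same fit. Under the rest of the 19 alternatives each member kept its direction. Over all 19, repeats included, in MI minus WT miR-181a was called in 19, miR-181b in 18 and miR-181c in 18. In RQ minus WT they were called in 12, 13 and 2, and in RQ minus MI in 13, 0 and 11. The following values left or gained a call, and except where a setting uses fewer arrays the cause was not tested. For miR-181a, RQ minus MI was -0.22 with median centring and -0.62 with loess on bright probes. RQ minus WT of miR-181a was 0.14 when Cy3 alone was used, 0.45 with a loess curve from bright probes, 0.46 with the scanner's processed signals, 0.48 with outlier spots kept and 0.48 with outlier spots in the loess curve, the last chosen after seeing the data. RQ minus WT of miR-181b was 0.24 when Cy3 alone was used and 0.35 with the curve from bright probes. For miR-181c, RQ minus MI was -0.38 with median centring, -0.47 with Cy3 alone, -0.98 with processed signals and -0.47 with outlier spots kept, while RQ minus WT was called at 0.54 with a normexp offset of 16 and at 0.54 with outlier spots kept. MI minus WT moved over 1.5 times with Cy3 alone for miR-181a and miR-181b (0.66 and 0.56), with median centring for miR-181a (0.80) and with processed signals for miR-181c (1.66). Leaving out 1 array gave, in MI minus WT, 1.17 to 1.39 for miR-181a, 0.93 to 1.19 for miR-181b and 0.92 to 1.08 for miR-181c. In RQ minus WT it gave 0.52 to 0.73, 0.54 to 0.65 and 0.36 to 0.41, and in RQ minus MI -0.70 to -0.61, -0.59 to -0.34 and -0.69 to -0.54. A lone array was assumed to vary like the other groups.

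Calls over all microRNAs were 46 in MI minus WT and 27 from only the 4 arrays of both groups. In RQ minus MI they were 32, but 10 with loess on bright probes, 14 with outlier spots kept and 17 with outlier spots in the loess curve. Leaving out 1 array gave 6 to 63 in MI minus WT, 5 to 60 in RQ minus WT (5 without RQ replicate 1, 40 without RQ replicate 2) and 0 to 48 in RQ minus MI. Of the calls, 58.7% were higher in MI than in WT, against 43.2% with median centring, 40% with the curve from bright probes, 28.6% from Cy3 alone and 28.1% with processed signals. In RQ minus WT 34.9% were higher, against 67.2% with median centring and 23.3% with loess on bright probes, and in RQ minus MI 28.1%, against 59.4%, 40%, 41.7% with Cy3 alone and 40.7% with processed signals. The median over all microRNAs in RQ minus WT was 0.03, and -0.26 with processed signals.

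The main fit did not pair samples by replicate number. Deviations of same-numbered arrays correlated at 0.0406 between RQ and MI, 0.119 between RQ and WT and 0.182 between MI and WT. With 2 arrays per group these low values cannot settle whether the samples were paired. With the replicate block the calls were 39 in MI minus WT, 59 in RQ minus WT and 38 in RQ minus MI, against 46, 63 and 32 without it. No member's call changed.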
